A study of Mus musculus with 4 samples.

Results

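The genes of the platelet-derived growth factor (PDGF) system were examined in fibro-adipogenic progenitors (FAPs), the interstitial mesenchymal cells of skeletal muscle, by their gene symbols. They were the receptor kinase genes Pdgfra and Pdgfrb, the receptor-like gene Pdgfrl, and the ligand genes Pdgfa, Pdgfb, Pdgfc, and Pdgfd, which are 7 of the 20027 genes measured by bulk RNA-Seq. Cells had been sorted from hind limb muscle of male C57BL/6 mice in the second week after birth, as Sca1+ cells lacking CD31, CD45, and Vcam, and were not cultured. GEO's labels give them as Sca-1 positive mesenchymal cells, although the series' design text refers to MuSCs, and they are called FAPs here after the study. The labels give 2 WT and 2 cKO libraries, each from a male with a number of its own. The cKO mice were Prx1-Cre;Bap1f/f, in which Bap1, a deubiquitinating enzyme, is inactivated. Whether the WT mice carried Prx1-Cre is unclear, since their labels name that driver and the study gives its controls as Bap1 fl/fl. Prx1-Cre acts in limb bud mesenchyme and so also reaches the precursors of limb cartilage, tendon, and bone, well before the cells were sampled.

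PDGF ligands are secreted dimers, and each receptor is a cell surface tyrosine kinase that dimerizes when a ligand binds. The receptor encoded by Pdgfra binds the A, B, and C chains, whereas the receptor encoded by Pdgfrb binds mainly the B and D chains. In skeletal muscle, PDGFRα marks FAPs and their relatives among fibroblasts, and PDGFRβ is best known from pericytes and other mural cells.

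Levels were deposited as RPKM, reads per kilobase of transcript scaled to the library total, a unit in which genes can be compared per length. Depth, estimated from the smallest steps between values and taking 1 step as 1 read, was 46.5 and 89.1 M reads in WT replicates 1 and 2 and 90.4 and 41.4 M reads in cKO replicates 1 and 2. The RPKM of Bap1, the targeted gene, is taken over the whole transcript, of which only a part is floxed, and does not check the deletion. It was 14.0 and 12.9 RPKM in WT and 14.2 and 15.3 RPKM in cKO (log2 fold change 0.13, limma adjusted p = 0.443), so groups are those of the labels. The RPKM summed over 15 FAP markers, most of it from collagens and other matrix genes, was 29469 to 31458 in WT and 13606 to 15050 in cKO, and the lowest single value was 1.34 RPKM, of Osr1 in cKO replicate 2. Of 10 macrophage and hematopoietic markers, 7 stayed under 1 RPKM in all libraries, and 2 of the 3 tested were called higher, with the sum at 7.10 to 10.0 RPKM in WT and 10.1 to 15.9 RPKM in cKO. Summed chondrocyte markers (10 genes) were 28.7 to 40.3 RPKM in WT and 2109 to 2409 RPKM in cKO. Of the genes that dissociation of tissue is known to induce, 8 of 25 were called lower and 2 higher. Among all genes tested, 6.48% were called lower and 35.9% higher. After the rescalings 10 or 12 of the 25 were lower and 1 or 2 higher, and without a filter on low values 2 were lower and 2 higher. Of myofiber markers 5 of 6 were lower. Of 6 Schwann cell markers 4 were higher and 1 lower (1 and 1 after each rescaling), and their listed sum was 194 and 206 RPKM in WT and 163 and 166 RPKM in cKO. Of 4 muscle stem cell markers 2 were higher and 1 lower. The median log2 fold change of all 11197 genes tested was 0.27 and not 0, and fold changes are therefore also given relative to that median. The samples were few, and p-values rest on the spread between these libraries alone.

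Promoter sequences are shown first for the members that changed in opposite directions, the ligand gene Pdgfa, the receptor gene Pdgfra, and, as a second ligand gene, Pdgfc. They were taken from RefSeq on GRCm38.p6, from 250 bases before to 50 bases after an annotated start. Windows of 4 member genes are reported, and none is reported for Pdgfrb, Pdgfrl, or Pdgfb. The capitals mark GGGCGG or its reverse complement CCGCCC, the core letters of a GC box, which was searched on both strands. Pdgfa has a pair of annotated windows, of which the upstream one is shown (chr5:138994895-138995194, minus strand), followed by Pdgfra (chr5:75152001-75152300, plus strand) and Pdgfc (chr3:81036166-81036465, plus strand).
Pdgfa: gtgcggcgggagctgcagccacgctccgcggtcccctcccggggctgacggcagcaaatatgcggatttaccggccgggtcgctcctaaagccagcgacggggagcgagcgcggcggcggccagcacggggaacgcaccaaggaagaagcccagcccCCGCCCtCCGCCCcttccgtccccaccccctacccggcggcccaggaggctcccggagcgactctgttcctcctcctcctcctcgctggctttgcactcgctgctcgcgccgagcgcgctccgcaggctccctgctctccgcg
Pdgfra: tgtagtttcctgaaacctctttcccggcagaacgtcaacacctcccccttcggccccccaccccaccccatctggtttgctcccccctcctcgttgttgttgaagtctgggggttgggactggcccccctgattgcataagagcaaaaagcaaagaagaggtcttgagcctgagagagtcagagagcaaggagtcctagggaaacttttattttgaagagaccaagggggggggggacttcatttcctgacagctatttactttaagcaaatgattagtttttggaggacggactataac
Pdgfc: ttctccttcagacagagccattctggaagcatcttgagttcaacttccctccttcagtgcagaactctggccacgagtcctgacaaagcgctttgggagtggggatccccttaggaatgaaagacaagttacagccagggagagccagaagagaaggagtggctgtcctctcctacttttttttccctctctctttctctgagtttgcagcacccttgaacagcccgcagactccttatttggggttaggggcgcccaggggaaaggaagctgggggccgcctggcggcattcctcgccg
The Pdgfa window shown held 2 copies of GGGCGG and 37 CpG dinucleotides, more CpG than 94.4% of the 32851 promoter windows of this length. The other Pdgfa window, which is not shown, held 1 copy and 24 CpG, more CpG than 80.0% of the windows. The Pdgfra window held 0 copies of GGGCGG and 5 CpG, against a median of 7 over all windows, and the Pdgfc window held 0 copies and 8 CpG. GGGCGG was found in 35.7% of all windows. The letters TATAAA, searched on both strands, were in none of these 3 windows, in the Pdgfd window once, and in 13.6% of all windows. These matches describe the letters in the windows.

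Pdgfra and Pdgfrl were lower and Pdgfa higher in cKO, Pdgfb and Pdgfc were also called higher from very low levels, and Pdgfrb and Pdgfd did not pass the test. At an adjusted p under 0.05 (limma on log2(RPKM + 1), Benjamini-Hochberg over all genes tested), 3 of the 7 members were higher in cKO, namely Pdgfa, Pdgfb, and Pdgfc, where 35.9% of all genes tested were called higher, not far from the share of the members. Pdgfra and Pdgfrl, 2 of the 7, were lower, where 6.48% of all genes tested were called lower. For the same 5 genes the libraries of the groups did not overlap, which held for 56.8% of all genes in the higher direction and 15.5% in the lower. All 7 members passed the low-value filter of 1 RPKM in 2 libraries, but Pdgfb and Pdgfc did so only through the cKO libraries in which they were high, and had to differ.

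Rescaling the libraries so that the median change over all genes was near 0 evened the background. With median-ratio scaling 2 members were higher and 2 lower, beside 15.8% and 13.6% of all genes. With cyclic loess the members gave the same counts beside 16.8% and 15.3%, and with quantile normalization 1 was higher and 2 lower, beside 15.9% and 16.2%.

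**Figure D1:**
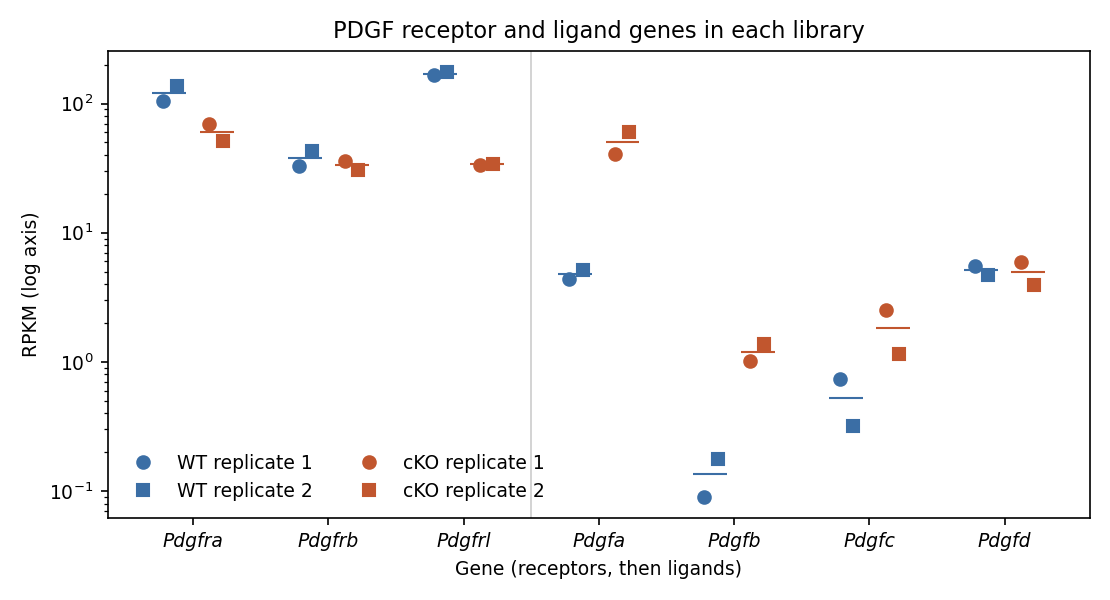
RPKM on a log axis of the 7 PDGF genes in each library, with WT in blue, cKO in orange, circles for replicate 1, squares for replicate 2, and a line at each group mean. The Pdgfra and Pdgfrl points of cKO lie below those of WT, the Pdgfa, Pdgfb, and Pdgfc points lie above, and the groups overlap for Pdgfrb and Pdgfd.

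Pdgfra, the receptor gene by which FAPs are usually recognized, is on chromosome 5 (75152292 to 75198215, plus strand, GRCm38). It measured 104 and 136 RPKM in WT and 69.7 and 51.3 RPKM in cKO, and both WT libraries lay above both cKO libraries. Its log2 fold change was -0.98 with an SE of 0.19 and a 95% interval of -1.41 to -0.55 (adjusted p = 0.00580), and lay 1.25 below the median of all genes. By level among all 20027 genes measured, it went from the 420th in WT to the 1046th in cKO. In a bulk sample, fewer cells of a type and less RNA per cell cannot be told apart. Of the 15 FAP markers, which do not include Pdgfra, 9 were called lower and 0 higher, beside 6.48% and 35.9% of all genes tested. Their median log2 fold change was -0.80, and the other markers did not pass the test. After the rescalings 9 or 10 were lower and 0 or 1 higher, beside 13.6% to 16.2% of all genes lower. Without the low-value filter 4 were lower and 0 higher. No FAP marker was at the value of a gene with no reads, and the part of this marker change in the lower Pdgfra was not tested.

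Pdgfrb, on chromosome 18 (61045150 to 61085061, plus strand, GRCm38), measured 32.9 and 43.2 RPKM in WT and 36.2 and 30.7 RPKM in cKO. The groups overlapped, with means of 38.0 ± 7.23 and 33.5 ± 3.84 RPKM (SD, n = 2 each). The log2 fold change of -0.17 (SE 0.16, 95% interval -0.55 to 0.20) did not pass the test (limma adjusted p = 0.421), and the interval leaves room for a modest fall as well as for a small rise. Pdgfrb lay 0.44 below the median of all genes. When libraries were rescaled so that this median was near 0, its log2 fold change was -0.47 with median-ratio scaling, -0.54 with quantile normalization, and -0.53 with cyclic loess, with adjusted p of 0.0582, 0.0513, and 0.0547. The summed level of 15 pericyte and smooth muscle markers, which do not include Pdgfrb, was 135 to 163 RPKM in WT and 538 to 708 RPKM in cKO. Of the 14 tested, 11 were called higher, beside 35.9% of all genes tested. After each rescaling 9 were higher and 1 lower, beside 15.8% to 16.8% of all genes higher and 13.6% to 16.2% lower. A marker under 1 RPKM in both WT libraries passed the low-value filter only through cKO and had to differ. The part of pericytes and smooth muscle cells in the level of Pdgfrb was not tested.

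Pdgfrl encodes a secreted receptor-like protein with immunoglobulin domains and no kinase domain, and is on chromosome 8 (40926212 to 40990785, plus strand, GRCm38). In WT it was the highest of the members, at 166 and 175 RPKM, and in cKO it measured 33.6 and 34.2 RPKM. The replicates of each group lay close together, at 171 ± 6.65 and 33.9 ± 0.398 RPKM (SD, n = 2 each), and the WT mean was 5.04 times the cKO mean. On the log2 scale its change was -2.30 (95% interval -2.56 to -2.04, limma adjusted p = 3.54e-05), and was the 9th largest fall of the genes tested. Pdgfrl went from 1.59 and 1.29 times the RPKM of Pdgfra in WT to 0.482 and 0.667 times in cKO, so that its ratio to Pdgfra was lower in both cKO libraries. The exact permutation p for that ratio was 0.333, the smallest that 2 against 2 libraries allow.

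The ratio of Pdgfra to Pdgfrb, in which the scaling of a library cancels, was 3.17 and 3.14 in WT and 1.93 and 1.67 in cKO. The WT libraries were nearly equal and both lay above both cKO libraries. By geometric means the ratio was 1.76 times higher in WT, a difference of -0.82 on the log2 scale, with an exact two-sided permutation p of 0.333, the smallest this design can give. Pdgfra made up 76.0% and 75.9% of the RPKM summed over both receptor kinase genes in WT and 65.8% and 62.5% in cKO. That sum itself was 137 and 179 RPKM in WT and 106 and 82.0 RPKM in cKO, without overlap.

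**Figure D2:**
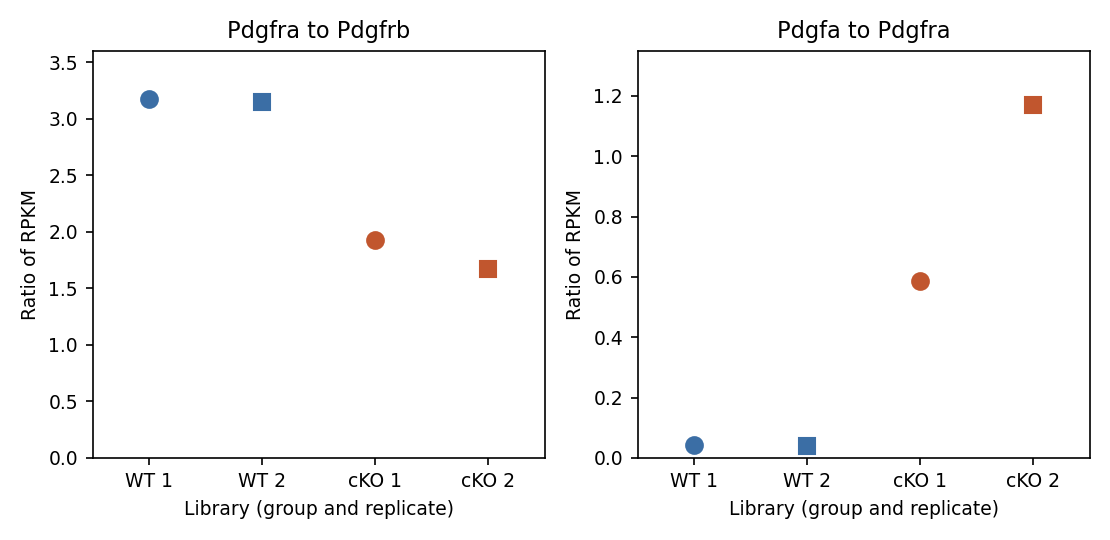
Ratio of Pdgfra to Pdgfrb RPKM (left) and of Pdgfa to Pdgfra RPKM (right) in each of the 4 libraries, on linear axes that start at 0, with WT in blue and cKO in orange. The left ratio is 3.17 and 3.14 in WT and 1.93 and 1.67 in cKO, and the right ratio is near 0 in WT and 0.587 and 1.17 in cKO.

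Among the ligand genes, Pdgfa rose most. It encodes the A chain, a ligand of the Pdgfra receptor only, and is on chromosome 5 (138976014 to 138997370, minus strand, GRCm38), on the same chromosome as Pdgfra but far from it. Pdgfa measured 4.36 and 5.18 RPKM in WT and 40.9 and 60.0 RPKM in cKO, and the lowest cKO library was 7.90 times the highest WT library. The cKO mean of 50.5 ± 13.5 RPKM was 10.6 times the WT mean of 4.77 ± 0.576 RPKM (SD, n = 2 each). On the log2(RPKM + 1) scale it rose by 3.14 (SE 0.19, 95% interval 2.69 to 3.58, limma adjusted p = 0.000105), which was the 42nd largest rise of the 11197 genes tested. By level among all 20027 genes measured, Pdgfa went from the 6623rd in WT to the 1260th in cKO. Its estimated reads were 418 and 950 in WT and 7620 and 5120 in cKO, so counting error is small beside the change.

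Markers of other limb cell types rose beside Pdgfa. All 10 chondrocyte markers were called higher, beside 35.9% of all genes tested, with a median log2 fold change of 4.97. Some of these markers were under 1 RPKM in both WT libraries, passed the low-value filter only through cKO, and had to differ. Tenocyte markers were called higher in 6 of 7, and their sum was 395 to 402 RPKM in WT and 1581 to 1865 RPKM in cKO. Of the perineurial markers, 4 of 6 were called higher and the sum was 61.4 to 61.6 RPKM in WT and 143 to 179 RPKM in cKO. Of 4 osteoblast markers tested, 3 were higher, and the sum over all 6 listed was 4.59 to 7.09 RPKM in WT against 161 and 19.4 RPKM in cKO replicates 1 and 2. The part of these cell types in the rise of Pdgfa was not tested.

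Pdgfb encodes the B chain, which both receptors bind and which endothelial cells and platelets are known to release, and is on chromosome 15 (79995874 to 80014977, minus strand, GRCm38). It was near the floor in WT, at 0.0907 and 0.178 RPKM, and measured 1.01 and 1.38 RPKM in cKO. These values correspond to an estimated 12 and 47 reads in WT and 269 and 168 reads in cKO. The ratio of mean RPKM was 8.88, whereas the log2 fold change on the log2(RPKM + 1) scale, which understates low genes, was 0.95 (SE 0.16, limma adjusted p = 0.00415). The call ended with quantile normalization, at 0.55 (adjusted p = 0.0933), and the log2 fold change was 1.41 and 2.48 with pseudocounts of 0.5 and 0.1. Endothelial markers summed to 72.2 to 89.8 RPKM in WT and 62.6 to 66.0 RPKM in cKO. Of the 8 tested, 2 were called higher and 1 lower, beside 35.9% and 6.48% of all genes tested. The median log2 fold change of the endothelial markers tested was 0.02, against 0.27 for all genes tested. Platelet markers summed to 4.83 to 6.35 RPKM in WT and 2.72 to 3.47 RPKM in cKO. Of these 6 markers, 4 stayed under 1 RPKM in all libraries and only 1 was tested, which was called lower. The part of either cell type in the rise of Pdgfb was not tested.

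Pdgfc encodes the C chain, a ligand of the Pdgfra receptor that is secreted with an inhibitory CUB domain, and is on chromosome 3 (81036416 to 81214040, plus strand, GRCm38). It measured 0.732 and 0.319 RPKM in WT and 2.51 and 1.16 RPKM in cKO, without overlap but with more than a 2-fold spread inside each group. The log2 fold change was 0.87 (SE 0.26, 95% interval 0.27 to 1.46, limma adjusted p = 0.0296), just past the threshold. The call ended under each of the 3 rescalings and without the low-value filter (adjusted p from 0.0614 to 0.114), and also without WT replicate 2 (0.67, adjusted p = 0.108) or cKO replicate 1 (0.52, adjusted p = 0.0710). An antisense gene shares 147 bases of exon with Pdgfc, and its reads could be counted with those of Pdgfc if the counting did not use strand.

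Pdgfd encodes the D chain, a CUB-domain ligand of the Pdgfrb receptor, and is on chromosome 9 (6168584 to 6378850, plus strand, GRCm38). It measured 5.53 and 4.72 RPKM in WT and 5.98 and 3.96 RPKM in cKO, and the cKO libraries lay on either side of the WT libraries. The log2 fold change was -0.06 (SE 0.20, 95% interval -0.52 to 0.41, limma adjusted p = 0.843). The interval leaves room for a modest fall or a modest rise.

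**Figure D3:**
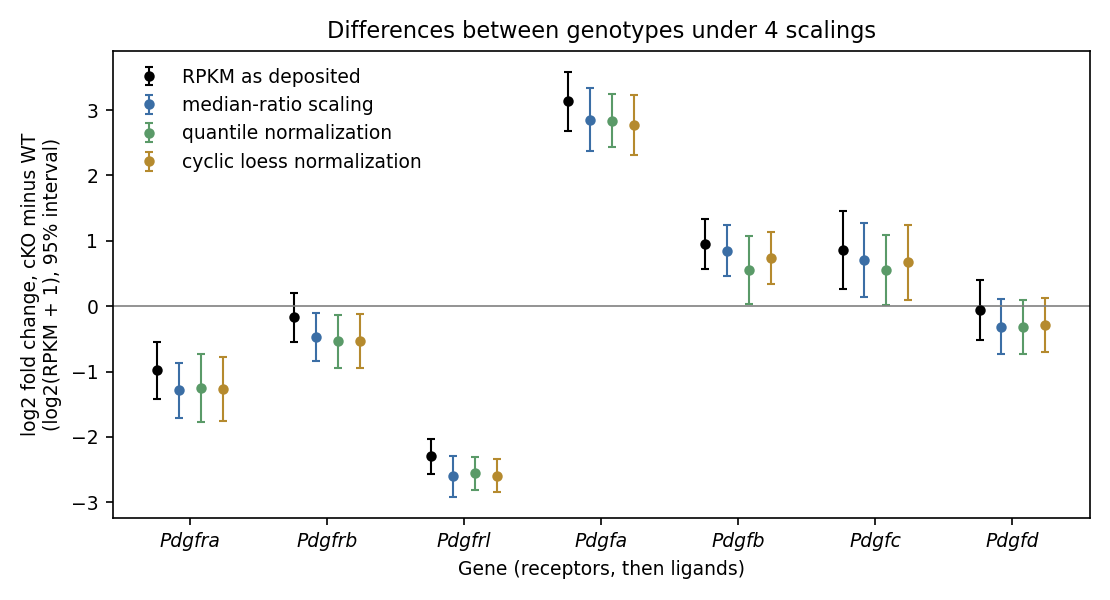
Log2 fold change of each member, cKO minus WT, on log2(RPKM + 1), with 95% intervals from limma, for RPKM as deposited (black) and after 3 rescalings of the libraries (colors). Pdgfra and Pdgfrl stay below 0 and Pdgfa above 0 under each of the 4, whereas all 7 members shift downward under the rescalings.

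The ordering of the members changed accordingly. In WT the order by mean RPKM was Pdgfrl, Pdgfra, Pdgfrb, Pdgfd, Pdgfa, Pdgfc, and Pdgfb, and among these neighbors only Pdgfd and Pdgfa overlapped between libraries. In cKO it was Pdgfra, Pdgfa, Pdgfrl, Pdgfrb, Pdgfd, Pdgfc, and Pdgfb, and the libraries overlapped for Pdgfra and Pdgfa, for Pdgfrl and Pdgfrb, and for Pdgfc and Pdgfb.

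The RPKM summed over the 4 ligand genes was 10.7 and 10.4 in WT and 50.4 and 66.5 in cKO, a 5.48-fold rise by geometric means. In WT, Pdgfd and Pdgfa made up most of the sum, with Pdgfd at 51.6% and 45.4% and Pdgfa at 40.7% and 49.8%. In cKO, Pdgfa made up 81.2% and 90.2%, and Pdgfd 11.9% and 5.95%. Pdgfd took a smaller share of a larger sum while its own level did not pass the test. The share of Pdgfb was 0.846% and 1.71% in WT and 2.01% and 2.07% in cKO, and that of Pdgfc was 6.83% and 3.07% in WT and 4.98% and 1.75% in cKO, with overlap. The exact permutation p was 0.333 for Pdgfa, Pdgfb, and Pdgfd and 0.667 for Pdgfc, where 0.333 is the smallest possible.

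**Figure D4:**
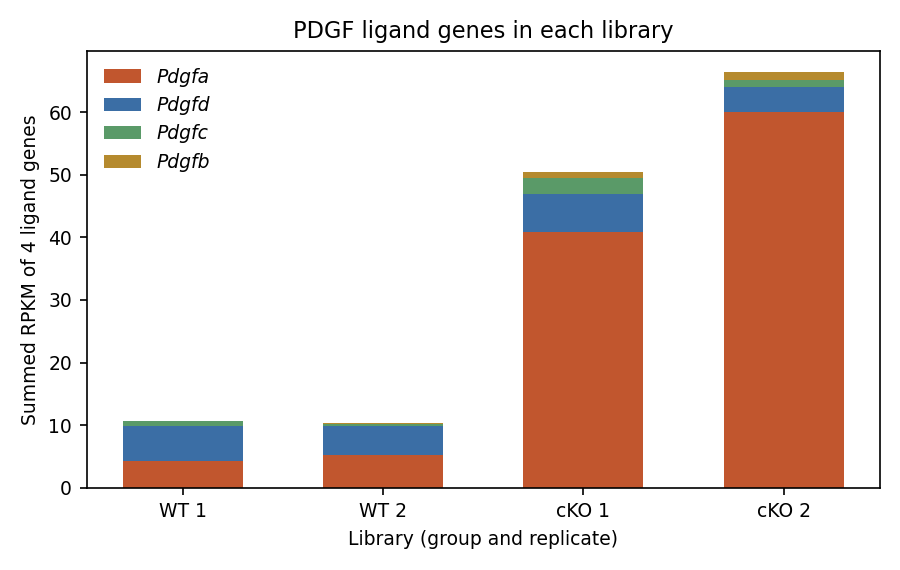
RPKM of the 4 ligand genes stacked in each library on a linear axis that starts at 0. The stack reaches 10.7 and 10.4 RPKM in WT and 50.4 and 66.5 RPKM in cKO, where Pdgfa fills most of it.

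Pdgfa and the gene of its receptor moved in opposite directions in the same libraries. The ratio of Pdgfa to Pdgfra was 0.0418 and 0.0382 in WT and 0.587 and 1.17 in cKO, 20.7-fold higher by geometric means. The summed ligands were 0.0781 and 0.0582 times the summed receptor kinases in WT and 0.476 and 0.810 times in cKO. Pdgfa relative to Pdgfd, ligand genes of different receptors, went from 0.789 and 1.10 to 6.85 and 15.2. For each of these 3 ratios the groups did not overlap, with an exact permutation p of 0.333, the smallest possible.

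Receptors related to the PDGF receptors were mostly too low to test, and their ligands varied. Of 6 related receptor genes, only Flt1, a VEGF receptor, passed the filter. It measured 2.45 and 3.34 RPKM in WT and 1.77 and 1.97 RPKM in cKO (log2 fold change -0.43, limma adjusted p = 0.0835), and was called lower at -0.64, -0.63, and -0.61 under the 3 rescalings. Of 9 ligands of those receptors, 2 were called higher and 1 lower, beside 35.9% and 6.48% of all genes tested. Their median log2 fold change was 0.01 against 0.27 for all genes. Il34, a ligand of the CSF1 receptor, rose from 2.78 and 3.18 RPKM to 9.44 and 11.7 RPKM (1.53, adjusted p = 0.000809). Csf1 was higher by 0.58 (adjusted p = 0.0211) and Flt3l, the FLT3 ligand, lower at -0.89 (adjusted p = 0.0250). The Csf1 call ended without the filter, with median-ratio scaling or loess, and without WT replicate 2 (0.38), and the Flt3l call ended without the filter, without WT replicate 2 (-0.76), or without cKO replicate 2 (-0.52).

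Of 9 genes that process PDGF ligands 8 were tested, with a median log2 fold change of 0.02. Of these, 2 were called higher and 1 lower, beside 35.9% and 6.48% of all genes tested. Furin, a convertase that cleaves the propeptides of the A and B chains, measured 45.6 and 45.1 RPKM in WT and 63.0 and 74.1 RPKM in cKO (0.58, limma adjusted p = 0.00951). Plau, urokinase, which activates the D chain, measured 106 and 119 RPKM in WT and 160 and 216 RPKM in cKO (0.73, adjusted p = 0.0115). Serpine2, an inhibitor of such proteases, measured 88.1 and 101 RPKM in WT and 58.4 and 59.7 RPKM in cKO (-0.66, adjusted p = 0.00511). The Furin call ended under all 3 rescalings and without WT replicate 2, that of Plau without the filter, with median-ratio scaling, and without WT replicate 1, and that of Serpine2 without WT replicate 2.

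Of the 6 coreceptors and ligand-binding proteins, 2 were called higher and 2 lower, beside 35.9% and 6.48% of all genes tested. Their median log2 fold change was -0.21. Nrp2, a neuropilin that serves VEGF and semaphorin receptors, rose from 2.53 and 3.33 RPKM to 14.5 and 15.2 RPKM (2.02, limma adjusted p = 0.000278). Its relative Nrp1, which has also been tied to PDGF receptors, measured 39.8 and 52.9 RPKM in WT and 31.6 and 29.8 RPKM in cKO (-0.57, adjusted p = 0.0219), a call that ended without the filter and without WT replicate 2 (-0.37). Cspg4, the NG2 proteoglycan that binds the A chain and marks pericytes, measured 12.7 and 15.2 RPKM in WT and 35.5 and 33.0 RPKM in cKO (1.24, adjusted p = 0.000904). Cspg4 belongs to the pericyte list as well.

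Among genes acting below the receptor, those called were higher as deposited, and the counts depended on the scaling. Of 23 genes whose products bind the activated receptor or act beside it, 8 were called higher and 0 lower, with a median log2 fold change of 0.33, close to the 0.27 of all genes, of which 35.9% were called higher. After the rescalings 2 were higher and 4 or 5 lower, beside 15.8% to 16.8% of all genes higher and 13.6% to 16.2% lower. Without WT replicate 1 or 2 their median log2 fold change was 0.31 or 0.36. Pik3cb, a PI3K catalytic subunit, rose from 0.339 and 0.353 RPKM to 2.19 and 3.92 RPKM (1.56, limma adjusted p = 0.00219). It passed the low-value filter only through the cKO libraries in which it was high, and had to differ. Stat5a, a transcription factor, rose from 16.5 ± 2.22 to 35.6 ± 6.54 RPKM (SD, n = 2 each), by 1.06 (limma adjusted p = 0.00294). The adaptor gene Nck2 was higher by 0.70 (adjusted p = 0.00673), a call that ended under the 3 rescalings.

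Of 10 genes that turn PDGF receptors off, 6 were called higher and 0 lower, with a median of 0.53, beside 35.9% higher among all genes. After each rescaling 3 were higher and 0 lower, beside 15.8% to 16.8% of all genes higher. Hgs, which sorts ubiquitinated receptors on endosomes, rose from 7.64 and 8.81 RPKM to 21.9 and 22.6 RPKM (1.34, limma adjusted p = 0.000663). Cblb, a ubiquitin ligase of activated receptors, rose from 8.75 and 9.74 RPKM to 18.6 and 23.1 RPKM (1.09, adjusted p = 0.00200). Ptprj, a receptor phosphatase, rose from 4.91 and 4.15 RPKM to 11.7 and 8.41 RPKM (0.99, adjusted p = 0.00561).

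Of 21 genes of the Ras and Akt pathways, 11 were called higher and 0 lower, with a median of 0.37, beside 35.9% higher among all genes. After each rescaling 3 were higher and 1 lower, a share no larger than the 15.8% to 16.8% of all genes called higher, and without WT replicate 1 or 2 the count higher was 5 or 6. Nras rose from 10.9 and 9.01 RPKM to 19.7 and 21.3 RPKM (0.98, limma adjusted p = 0.00232), and the kinase gene Map2k1 from 16.9 and 18.6 RPKM to 30.7 and 39.6 RPKM (0.94, adjusted p = 0.00335).

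**Figure D5:**
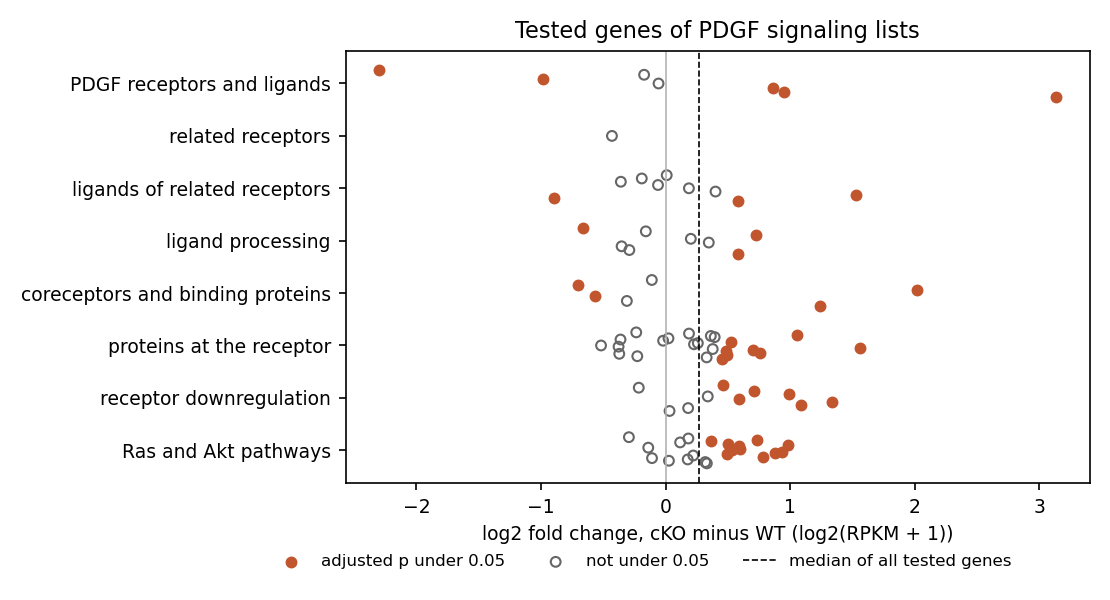
Log2 fold change, cKO minus WT, of each tested gene of the PDGF members and the 7 pathway lists, filled where the limma adjusted p is under 0.05 and open otherwise. The dashed line is the median of all genes tested, 0.27, and Pdgfrl at -2.30 and Pdgfa at 3.14 lie farther from it than any gene of the other lists.

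Genes with the pattern over the 4 libraries closest to that of each receptor kinase gene were found by Euclidean distance between centered log2(RPKM + 1) values, among genes with a mean of at least 5 RPKM. Closest to Pdgfra were Slc41a3 (distance 0.0736), Slco2b1 (0.135), and Tenm3 (0.149). Slc41a3 measured 10.6 and 13.4 RPKM in WT and 6.51 and 4.85 RPKM in cKO, the same order of libraries as Pdgfra. Closest to Pdgfrb were Tbx2 (distance 0.0358), Tulp3 (0.0473), and Fam193b (0.0711), and Tbx2 measured 6.51 and 8.88 RPKM in WT and 7.50 and 6.07 RPKM in cKO.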

How the data were processed

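RNA-Seq data came from 4 libraries of sorted Sca1+ cells, prepared with a TruSeq kit for paired-end reads. A single table of RPKM values, with 1 RefSeq accession a gene, was deposited by the authors. Tools named in the submitters' processing notes are edgeR, bedtools, and TopHat2 2.0.9, and mm10 and mm9 are named as builds; neither the annotation nor the counting rule nor strand use is given in the sources used here. Because RPKM divides by the library total, a change in abundant genes shifts all others. Only 62.8% of 1148 low values fell on whole steps (tolerance 0.02 of a step), so whole reads could not be recovered and a count model was left out. Depth came from 432 intronless olfactory receptor genes, and read numbers are estimates.

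Genes with at least 1 RPKM in 2 libraries (11197 of 20027) were tested with limma 3.58.1 in R 4.3.3 (trended eBayes) on log2(RPKM + 1), and p-values were adjusted by Benjamini-Hochberg over all of them (threshold 0.05). Ratios and shares were tested over libraries with exact two-sided permutation tests (SciPy 1.17.1). The code was tested on simulated data with 2 libraries in each group, in which 7.36% of the calls at this threshold were false. Of the 1.5-fold changes put in 37.3% were recovered, and of the 2-fold changes 92.5%. Far fewer genes were changed there than were called in these data. Gene spans came from GENCODE (GRCm38), matched by accession. Alternatives were pseudocounts of 0.1 and 0.5, filters at 0 and 5 RPKM, rescaling by median ratios, quantiles, or cyclic loess, a robust or untrended eBayes step, a replicate block, each library left out, and the study's stricter FDR limit of 1e-05. The members and lists were chosen with earlier results of these data known. Named genes were all 7 members, up to 3 genes of each pathway list with the smallest p, and the 3 genes nearest in pattern to Pdgfra and to Pdgfrb, leaving out uncharacterized gene models. A gene that this rule names is not reported here. Marker lists are given by counts and sums.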

Additional observations from a re-analysis of the deposited data

How the results depend on the processing

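The calls of Pdgfra, Pdgfrl, and Pdgfa kept their direction and stayed under an adjusted p of 0.05 in all alternative fits. The study's FDR limit of 1e-05 was applied here to the limma fit, which need not be the test that the study used. At that limit 0 members were called higher and 0 lower, and 5 of all genes were higher and 0 lower. The log2 fold changes were unchanged, at -0.98 for Pdgfra, -2.30 for Pdgfrl, 3.14 for Pdgfa, 0.95 for Pdgfb, and 0.87 for Pdgfc. The Pdgfb call ended with quantile normalization (0.55), and that of Pdgfc without the filter (0.87) and with median-ratio (0.71), quantile (0.56), and loess (0.67) scaling. Members called higher numbered 1 with the 5 RPKM filter, which left Pdgfb and Pdgfc without a value, and 1 with quantile normalization. Over all genes, 1769, 1777, and 1885 were higher and 1527, 1818, and 1710 lower with median-ratio, quantile, and loess scaling, against 4016 and 726 as deposited, since these scalings move the median log2 fold change of 0.27 to about 0. Leaving out 1 library at a time gave 2386 to 4044 genes higher and 390 to 1258 lower, 2 to 3 members higher and 2 lower in each, and log2 fold changes of -1.20 to -0.76 for Pdgfra, -2.34 to -2.26 for Pdgfrl, 2.86 to 3.41 for Pdgfa, 0.83 to 1.07 for Pdgfb, and 0.52 to 1.22 for Pdgfc. Pdgfrb spanned -0.36 to 0.018 (0.018 without WT replicate 2) and Pdgfd -0.30 to 0.19 (positive without WT replicate 1, 0.04, or cKO replicate 2, 0.19). The log2 ratio of Pdgfra to Pdgfrb stayed between -0.92 and -0.71. The Pdgfc share difference spanned -3.47 to 0.29 percentage points, positive without WT replicate 1 (0.29) or cKO replicate 2 (0.03). In these fits the lone library of a group is assumed to vary like the others. The cause of these shifts was not tested.

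Replicate numbers name animals and give no pairing, and same-numbered deviations correlated at -0.304 over genes. With the replicate number as a block, 3552 genes were higher and 731 lower, and no member's call changed. Crossed pairs, chosen after seeing the data, gave 4807 higher and 1088 lower. Depth limits the WT values of Pdgfb and Pdgfc most.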
